A study of Mus musculus with 15 samples.

Results

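The antigen presentation genes described here are 10 genes of the major histocompatibility complex (MHC) pathways, taken by symbol from the 56832 genes of a bulk RNA-sequencing count table. MHC class II gave 7 of them (*H2-Aa*, *H2-Ab1*, *H2-Eb1*, *Cd74*, *Ciita*, *H2-DMa* and *H2-DMb1*) and class I gave 3 (*H2-K1*, *H2-D1* and *B2m*). All 10 had a row in the table, and 9 had enough reads to be tested. The cells were bone marrow mesenchymal stromal cells (MSCs), grown from the long bones of 16 week old mice. The series description gives a magnetic sort for cells without CD45, a blood cell protein, and the methods of the study also name removal of Ter119+ and CD31+ cells, or flow sorting, for such cultures. TauT is the taurine transporter encoded by *Slc6a6*, and TauT-/- mice lack it in every tissue, on a C57BL/6J background shared with the TauT+/+ controls. The 15 libraries were labelled as 4 male TauT+/+, 4 male TauT-/-, 3 female TauT+/+ and 4 female TauT-/- samples, and are called male or female WT or KO by these labels and their number. The labels do not say whether each library came from a separate mouse, so p-values measure the spread between libraries.

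Class I molecules are made by nearly all nucleated cells and show peptides from inside the cell to CD8 T cells. Each is a heavy chain, here H2-K or H2-D, held on the cell surface by beta-2 microglobulin, the product of *B2m*. Class II molecules are mostly made by dendritic cells, B cells and activated macrophages, and show peptides from engulfed material to CD4 T cells. They pair an alpha with a beta chain, are escorted by the invariant chain encoded by *Cd74*, and receive peptide with the help of H2-DM. *Ciita* encodes the coactivator that turns class II genes on as a group, and is itself induced by interferon gamma, which can also bring out class II on stromal cells.

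Values are CPM, reads scaled to a common library size by the TMM method, which corrects for composition. The male label went with totals of 69764291 to 101575071 counts and the female label with 12761107 to 20781070, so depth and sex label cannot be told apart. In 3 libraries, male WT 1, male KO 1 and female WT 3, *Xist* and *Ddx3y* went against the sex label, and names here follow the labels. Male KO 1 and female KO 1 were nearly the same library by their counts (a spread of 0.102 between their log2 values over genes), as were male WT 1 and female WT 1 (0.114), while the next closest pair differed by 0.261. Both pairs thus join a library that went against its label to one that did not. Their spreads exceeded what counting alone gives (0.0589 and 0.0618), which does not show that they are separate samples. All 15 libraries were kept, and results are also given without 1 side of these pairs where that moved them. *Slc6a6* itself had 1571 ± 712 CPM (SD, n = 7) in WT and 806 ± 399 CPM (SD, n = 8) in KO libraries, a log2 fold change of -0.97 ± 0.36 (SE, adjusted p = 0.125 in edgeR), and the genotypes overlapped.

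None of the 9 tested members differed between KO and WT libraries at an edgeR adjusted p under 0.05, where 1.3% of all 17204 genes tested did. At an unadjusted p under 0.05 there was 1 member, *H2-Aa* (unadjusted p = 0.0060 in edgeR), against 23.6% of all genes. DESeq2 gave a p for 6 members and called 0 of them, where it called 6.34% of 33207 genes, low-count genes included. Among the 17204 genes it called 956 higher and 1110 lower. No member separated the genotypes without overlap, where 1.13% of all genes did. *H2-Aa*, *H2-Eb1*, *Cd74* and *Ciita* were all highest in a single library, male KO 2, by 20.7 to 84.2 times the next. *H2-Ab1* was present in every library, with far less of its partner *H2-Aa* in all libraries but male KO 2. The 3 class I genes were highest in the same libraries.

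**Figure D1:**
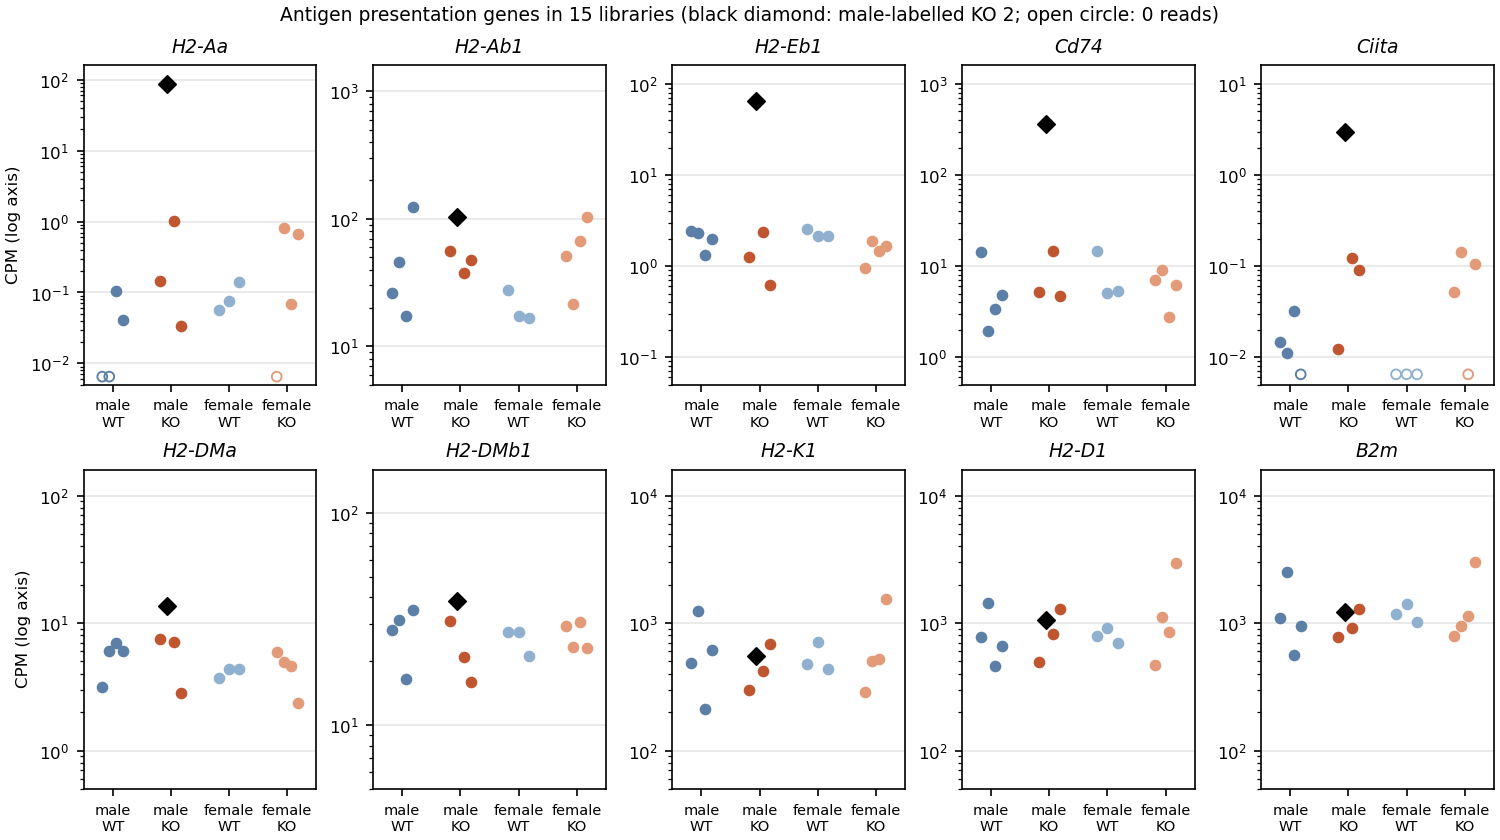
CPM of each of the 10 genes on a log axis, 1 panel per gene and 1 point per library, in the 4 groups named on the horizontal axis; the black diamond is male KO 2 and open circles are libraries with 0 reads. The diamond sits at 85.7 CPM for *H2-Aa*, 64.7 CPM for *H2-Eb1*, 363 CPM for *Cd74* and 2.98 CPM for *Ciita*, at least 20.7 times the next library, but inside or close to the other points for the remaining genes.

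*Ciita* (chromosome 16 of GRCm39, 10297923 to 10347694, + strand) was close to absent outside male KO 2. It had 0.0146, 0.0111, 0.0319 and 0 CPM in male WT 1 to 4, and 0 CPM in all 3 female WT libraries. The KO values were 0.0123, 2.98, 0.122 and 0.091 CPM in male KO 1 to 4 and 0.0524, 0.144, 0 and 0.104 CPM in female KO 1 to 4. Of 291 *Ciita* reads in the whole series, 259 (89.0%) came from male KO 2. The next highest library in reads, male KO 3, had 12, and 3 reads amount to 0.0305 to 0.0437 CPM at the male-labelled depth and to 0.138 to 0.229 CPM at the female-labelled depth. *Ciita* was above the highest WT library in 6 of 8 KO libraries, 3 of which held 1 to 3 reads. It failed the filter on low counts and has no edgeR fold change among the 17204 genes.

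*H2-Aa* encodes the alpha chain of I-A, the class II molecule of C57BL/6 mice, which do not make the I-E alpha chain. It lies on chromosome 17 of GRCm39 (34493404 to 34506798, - strand). It had 0, 0, 0.106 and 0.0403 CPM in male WT 1 to 4, and 0.0575, 0.0765 and 0.138 CPM in female WT 1 to 3. In the KO libraries, male KO 1 to 4 had 0.147, 85.7, 1.02 and 0.0341 CPM, and female KO 1 to 4 had 0, 0.816, 0.0695 and 0.678 CPM. Male KO 2 thus held 7457 of 7621 *H2-Aa* reads (97.85%), at 84.2 times the level of male KO 3, the next library. In 5 of 8 KO libraries *H2-Aa* was above the highest WT library. Its log2 fold change was 7.56 ± 2.35 (SE, adjusted p = 0.0889 in edgeR). It no longer passed the filter on low counts without male KO 2, nor without any other 1 of the 8 male-labelled libraries. Without male KO 2 the KO mean fell from 11.1 to 0.395 CPM, beside 0.0598 CPM in WT.

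*H2-Eb1* encodes the beta chain of I-E and lies beside *H2-Aa* (34504236 to 34535648, + strand), with 118 exon bases of the pair overlapping on opposite strands. It had 2.42, 2.30, 1.32 and 1.96 CPM in male WT 1 to 4, and 2.53, 2.14 and 2.16 CPM in female WT 1 to 3. Among KO libraries, male KO 1 to 4 had 1.26, 64.7, 2.37 and 0.626 CPM, and female KO 1 to 4 had 0.943, 1.87, 1.46 and 1.67 CPM. Male KO 2 was 25.6 times the next library, while 3 other KO libraries lay below every WT library. The log2 fold change of 1.41 ± 1.03 (SE, adjusted p = 0.427 in edgeR) turned to -0.55 ± 0.29 (SE, adjusted p = 0.253 in edgeR) without male KO 2.

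*Cd74* encodes the invariant chain, which blocks the peptide groove until the class II molecule reaches the endosome. It had 14.3, 1.92, 3.38 and 4.85 CPM in male WT 1 to 4, and 14.7, 5.13 and 5.39 CPM in female WT 1 to 3. The KO libraries ranged more widely, as male KO 1 to 4 had 5.19, 363, 14.7 and 4.66 CPM, and female KO 1 to 4 had 7.02, 9.12, 2.78 and 6.26 CPM. Apart from male KO 2 the genotypes covered similar ranges, and the KO mean without it, 7.10 ± 3.88 CPM (SD, n = 7), was beside a WT mean of 7.09 ± 5.19 CPM (SD, n = 7). The log2 fold change was 1.93 ± 1.23 (SE, adjusted p = 0.358 in edgeR) with all libraries and 0.0063 ± 0.47 (SE, adjusted p = 0.996 in edgeR) without male KO 2.

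DESeq2 gave no p for *H2-Aa*, *H2-Eb1*, *Cd74* and *Ciita*, since it withholds one where a single library weighs too much in the fit. Its measure of that weight, Cook's distance, was largest in male KO 2 for all of them, from 24.9 for *Ciita* to 96.2 for *H2-Aa* with a limit of 5.95. The other 6 members stayed under 1.35.

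*H2-Ab1* behaved differently from its partner chain. It encodes the I-A beta chain and lies on chromosome 17 (34476663 to 34488393, + strand), with no exon shared with another gene. It had 26, 45.7, 17.4 and 123 CPM in male WT 1 to 4, and 27.5, 17.4 and 16.8 CPM in female WT 1 to 3. Male KO 1 to 4 had 55.9, 104, 37.7 and 47.2 CPM, and female KO 1 to 4 had 50.8, 21.4, 67.1 and 104 CPM. Every library held 227 to 9122 of its reads. The highest was male WT 4, and no KO library exceeded it. The log2 fold change was 0.81 ± 0.47 (SE, adjusted p = 0.305 in edgeR), and 0.69 ± 0.52 (SE, adjusted p = 0.429 in edgeR) without male KO 2.

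The alpha and beta chain genes of I-A were therefore far apart in level. *H2-Aa* was at 82.4% of the CPM of *H2-Ab1* in male KO 2 and at 0 to 3.81% in the other 14 libraries. Levels were also divided by the kilobases of all annotated exons, 4292 bases for *H2-Aa* and 2568 for *H2-Ab1*. Their longest coding transcripts have 1254 and 1233 bases, so this scale lowers *H2-Aa* more. On it, the median over libraries was 17.8 CPM for *H2-Ab1*, 2.14 CPM for *Cd74*, 0.756 CPM for *H2-Eb1*, 0.0178 CPM for *H2-Aa* and 0.00132 CPM for *Ciita*. In male KO 2 the same values were 40.5, 144, 24.9, 20 and 0.269 CPM per kilobase. The order of *H2-Ab1* and *Cd74* was thus the opposite in male KO 2 from the medians.

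H2-DM removes the last piece of the invariant chain and loads peptide. *H2-DMa*, its alpha chain (chromosome 17, 34338515 to 34358958, + strand), had 3.14, 6.04, 7.01 and 6.0 CPM in male WT 1 to 4, and 3.68, 4.36 and 4.33 CPM in female WT 1 to 3. Male KO 1 to 4 had 7.45, 13.6, 7.08 and 2.81 CPM, and female KO 1 to 4 had 5.97, 4.94, 4.58 and 2.35 CPM. Male KO 2 was again the highest library, at 1.82 times the next, and the log2 fold change was 0.31 ± 0.30 (SE, adjusted p = 0.546 in edgeR).

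*H2-DMb1*, a beta chain of H2-DM (chromosome 17, 34372046 to 34379204, + strand), varied least of all members, by 2.41 times from the lowest to the highest library. It had 28.1, 31.2, 16.6 and 35.0 CPM in male WT 1 to 4, and 27.4, 27.5 and 21.1 CPM in female WT 1 to 3. For the KO genotype, male KO 1 to 4 had 30.8, 38.3, 20.8 and 15.9 CPM, and female KO 1 to 4 had 29.3, 23.3, 30.6 and 23 CPM. The log2 fold change was -0.0041 ± 0.19 (SE, adjusted p = 0.992 in edgeR), with the sign depending on the scaling. Of its transcript's stretches of 150 bases, the read length, 5.74% also occur in *H2-DMb2*, and reads from these cannot be assigned with certainty.

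**Figure D2:**
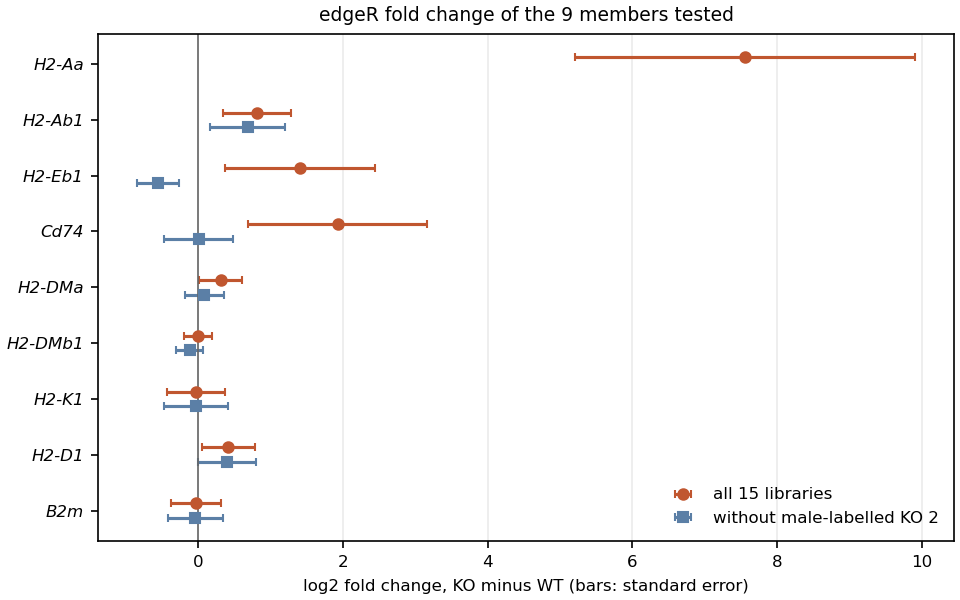
Log2 fold change of KO over WT libraries (horizontal axis) with its standard error (bars) for the 9 tested members, from all 15 libraries (circles) and without male KO 2 (squares). *Cd74* moves from 1.93 to 0.0063 and *H2-Eb1* from 1.41 to -0.55, *H2-Aa* has no second value because it was then not tested, as with any other male-labelled library left out, and the class I genes stay close to where they were.

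The start-site windows of these genes are shown because class II genes share upstream elements, the X and Y boxes, to which the RFX and NF-Y factors bind and CIITA is recruited. RefSeq windows for GRCm38.p6 were found for 7 of the 10 members, and each line gives the 180 bases before the start, 5′ to 3′ on the strand of the gene. Capitals mark matches on either strand to the Y box core ATTGG, to an X box pattern (read as AGCAACTGATG and AGTAACTGATG in these windows), to an interferon-stimulated response element (GAAACTGAAA in its only match here) and to the NF-kappaB site of class I genes, the run of capitals in *H2-K1* that recurs in *H2-D1*.
H2-Aa (chr17:34287824-34288003, - strand): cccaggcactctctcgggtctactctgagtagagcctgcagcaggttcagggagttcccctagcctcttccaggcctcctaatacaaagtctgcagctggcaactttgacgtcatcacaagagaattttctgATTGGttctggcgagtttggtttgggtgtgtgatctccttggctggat
H2-Eb1 (chr17:34305687-34305866, + strand): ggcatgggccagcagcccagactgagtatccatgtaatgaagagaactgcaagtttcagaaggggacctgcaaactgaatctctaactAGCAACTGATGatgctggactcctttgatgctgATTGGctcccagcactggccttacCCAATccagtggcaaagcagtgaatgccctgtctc
H2-DMa (chr17:34122652-34122831, + strand): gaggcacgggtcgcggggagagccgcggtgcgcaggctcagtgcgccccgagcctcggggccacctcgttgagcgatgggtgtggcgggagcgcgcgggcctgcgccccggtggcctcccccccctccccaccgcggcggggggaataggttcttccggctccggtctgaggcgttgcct
H2-DMb1 (chr17:34153011-34153190, + strand): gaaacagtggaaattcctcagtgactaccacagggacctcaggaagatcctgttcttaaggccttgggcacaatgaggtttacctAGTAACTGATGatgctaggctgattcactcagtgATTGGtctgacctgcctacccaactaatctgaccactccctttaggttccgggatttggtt
H2-K1 (chr17:34000348-34000527, - strand): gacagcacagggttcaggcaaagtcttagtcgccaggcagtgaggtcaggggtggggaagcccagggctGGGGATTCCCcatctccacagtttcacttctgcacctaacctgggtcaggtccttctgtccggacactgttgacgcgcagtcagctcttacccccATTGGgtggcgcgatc
H2-D1 (chr17:35262914-35263093, + strand): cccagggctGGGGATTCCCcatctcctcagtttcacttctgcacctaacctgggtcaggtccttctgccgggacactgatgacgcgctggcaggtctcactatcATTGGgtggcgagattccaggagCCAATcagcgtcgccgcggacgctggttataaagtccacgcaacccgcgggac
B2m (chr2:122147507-122147686, + strand): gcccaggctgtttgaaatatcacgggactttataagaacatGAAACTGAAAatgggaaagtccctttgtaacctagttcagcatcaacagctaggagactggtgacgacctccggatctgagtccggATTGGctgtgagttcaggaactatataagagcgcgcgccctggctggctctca

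*H2-Eb1*, at 25.6 times the next library in male KO 2, and *H2-DMb1*, at 1.1 times the next library there, both hold the X box pattern followed by a Y box, at similar distances from the start. *H2-Aa* holds the Y box core without a match to the X box pattern as written, and *H2-DMa* holds no match in the bases shown. *H2-K1* and *H2-D1* both hold the NF-kappaB site, and *B2m* holds the interferon-stimulated response element. In all 32851 RefSeq windows, 250 bases before the start, the Y box core was found in 33.8%, the X box pattern in 0.816%, the interferon element in 2.98% and the NF-kappaB site in 0.0852%. A further interferon pattern, the GAS element TTCNNNGAA, was in none of the members' windows and in 7.02% of all. The matches describe letters and say nothing of binding in these cells.

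The class I genes were among the well-expressed genes in every library. *H2-K1* (chromosome 17, 34214987 to 34219321, - strand) had 485, 1242, 211 and 619 CPM in male WT 1 to 4, and 476, 717 and 439 CPM in female WT 1 to 3. In KO cells, male KO 1 to 4 had 300.4, 551, 417 and 682 CPM, and female KO 1 to 4 had 290.2, 502, 526 and 1541 CPM. Its highest library was female KO 4, followed by male WT 2, so that both genotypes reached the top of the range.

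*H2-D1* (chromosome 17, 35481691 to 35486475, + strand) had 778, 1424, 464 and 661 CPM in male WT 1 to 4, and 793, 917 and 702 CPM in female WT 1 to 3. Male KO 1 to 4 had 496, 1051, 823 and 1288 CPM, and female KO 1 to 4 had 473, 1115, 856 and 2946 CPM. Female KO 4 and male WT 2 again led, with female KO 4 at 2.07 times male WT 2.

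*B2m* (chromosome 2, 121977957 to 121983594, + strand) had 1092, 2529, 557 and 952 CPM in male WT 1 to 4, and 1178, 1417 and 1023 CPM in female WT 1 to 3. Male KO 1 to 4 had 774, 1212, 907 and 1285 CPM, and female KO 1 to 4 had 791, 939.9, 1146 and 3032 CPM. The same 2 libraries led, and the genotypes had near-equal means of 1249.8 ± 621 CPM (SD, n = 7) in WT and 1261 ± 740.4 CPM (SD, n = 8) in KO.

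Between KO and WT libraries the log2 fold change was -0.033 for *H2-K1* (SE 0.40, adjusted p = 0.972 in edgeR), 0.41 for *H2-D1* (SE 0.37, adjusted p = 0.514 in edgeR) and -0.027 for *B2m* (SE 0.35, adjusted p = 0.974 in edgeR). With standard errors of this size the sign of the *H2-K1* and *B2m* values depended on which libraries and scaling were used. Male KO 2 did not stand apart in class I, at 551 CPM of *H2-K1*, 1051 CPM of *H2-D1* and 1212 CPM of *B2m*. Within each library the 3 genes kept close proportions. The CPM of *H2-D1* was 1.07 to 2.22 times that of *H2-K1*, and *B2m* was 0.581 to 1.04 times the sum of both heavy chains, while *B2m* itself ranged over 5.44 times. Exons of noncoding genes on the opposite strand cover 26.8% of the exon bases of *H2-K1* and 24.2% of those of *H2-D1*. In class II they cover 17.0% of *H2-DMb1*, while exons of the protein-coding genes *Brd2* and *Dexi* cover 11.8% of *H2-DMa* and 5.73% of *Ciita*. The sources used here do not say whether the library kit marks strand. Reads from these stretches are thus less certain, which weighs most on the low values of *H2-DMa* and *Ciita*.

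Class II was set beside class I in each library. *Cd74* was at 30.0% of the CPM of *B2m* in male KO 2 and at 0.0761 to 1.61% in the other 14 libraries. The log2 ratio of *H2-Ab1* to *B2m* was -5.24 ± 1.1 (SD, n = 7) in WT and -4.37 ± 0.64 (SD, n = 8) in KO libraries, a difference of 0.865 that missed the threshold in an exact two-sided permutation test within the sex labels (p = 0.0714, where the smallest possible p is 0.00041). Without male WT 4, the library with the most *H2-Ab1*, the difference was 1.25 (exact permutation p = 0.00327), and without female KO 2 it was 1.01 (exact permutation p = 0.0457). Leaving out any other library gave an exact permutation p of 0.0671 to 0.160, and without male KO 2 the difference was 0.746 (exact permutation p = 0.134). Without 1 side of both near-identical pairs it was 0.759 (male WT 1 and male KO 1 left out, exact permutation p = 0.157) or 0.778 (female WT 1 and female KO 1 left out, exact permutation p = 0.14). In male-labelled libraries alone the difference was 0.603 (exact permutation p = 0.40), and in female-labelled libraries alone it was 1.28 (exact permutation p = 0.0857).

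Within the sex labels no member passed an adjusted p under 0.05 in edgeR, nor did any of the 17204 genes (0%). At an unadjusted p under 0.05 there were 3 members under the male label, *H2-Aa*, *H2-Eb1* and *Cd74*, where 8.62% of all genes were, and 1 under the female label, *H2-Ab1*, where 14.6% were. In female-labelled libraries *H2-Ab1* had a log2 fold change of 1.56 (SE 0.65, unadjusted p = 0.032 and adjusted p = 0.308 in edgeR), with 3 of 4 KO libraries above all 3 WT libraries. In male-labelled libraries it was 0.21 ± 0.57 (SE, adjusted p = 0.931 in edgeR), and the difference between the labels was 1.35 ± 0.86 (SE, adjusted p = 1.00 in edgeR). *Cd74* had log2 fold changes of 3.99 under the male and -0.41 under the female label, and *H2-Eb1* had 3.11 and -0.62. The male values hold male KO 2, and the differences between the labels had edgeR unadjusted p of 0.0244 for *Cd74* and 0.0345 for *H2-Eb1* and did not pass adjustment (adjusted p = 1.00 for both), where 1.41% of all genes had an unadjusted p under 0.05. Without male WT 1 and male KO 1, which went against the male label, the male log2 fold changes were 5.21 for *Cd74* and 3.58 for *H2-Eb1*, and without female WT 1 and female KO 1 the female value of *Cd74* was 0.26. No member passed within a label in either of these fits.

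Macrophages are a blood cell type that makes class II and that MSC cultures can hold, and in bulk RNA more cells of a type cannot be told apart from more RNA per cell. Of 14 stromal markers 13 were detected in every library, while *Lepr*, the leptin receptor gene of marrow stroma, was at 0 in female KO 4. All 18 macrophage markers were detected in every library, among them *Ptprc*, which encodes CD45, at 27.9 to 369.6 CPM after the removal of CD45+ cells. The summed level of the macrophage markers was 1580 to 10610 CPM (median 9467) in WT and 7674 to 24800 CPM (median 18140) in KO libraries. All 18 had a positive log2 fold change (median 0.94, against -0.015 for all genes tested, where 48.3% were positive). At an unadjusted p under 0.05 in edgeR there were 15 of the 18, where 23.6% of all genes were. After adjustment 1 of them, the lysosomal protein gene *Cd68*, rose past the threshold (log2 fold change 1.46, edgeR adjusted p = 0.0445), while DESeq2 called 9. *Cd68* passed in 3 of the 15 fits with 1 library left out (adjusted p of 0.0275 to 0.107 in edgeR over all 15), those without male WT 1, male WT 3 or female KO 1. *Cd68* did not pass without male WT 1 and male KO 1 (edgeR adjusted p = 0.072) or without female WT 1 and female KO 1 (edgeR adjusted p = 0.097). Male KO 2, with 12450 CPM, was above every WT library and below 5 of the other KO libraries. None of these had its levels of *H2-Aa*, *H2-Eb1*, *Cd74* and *Ciita*, while in *H2-Ab1* female KO 4 came close, at 103.6 against 104.0 CPM. Male WT 2 had the lowest macrophage sum and the next highest class I level, and female KO 4 had the highest of both. Female KO 4 also had the lowest summed level of 14 stromal markers, 6174 CPM, where the other libraries reached up to 47700 CPM. With the macrophage list as a covariate none of the 17204 genes was called, and so no member. *H2-Ab1* then had a log2 fold change of 1.33 (edgeR adjusted p = 0.533). The part of these cells in the results was not tested further.

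**Figure D3:**
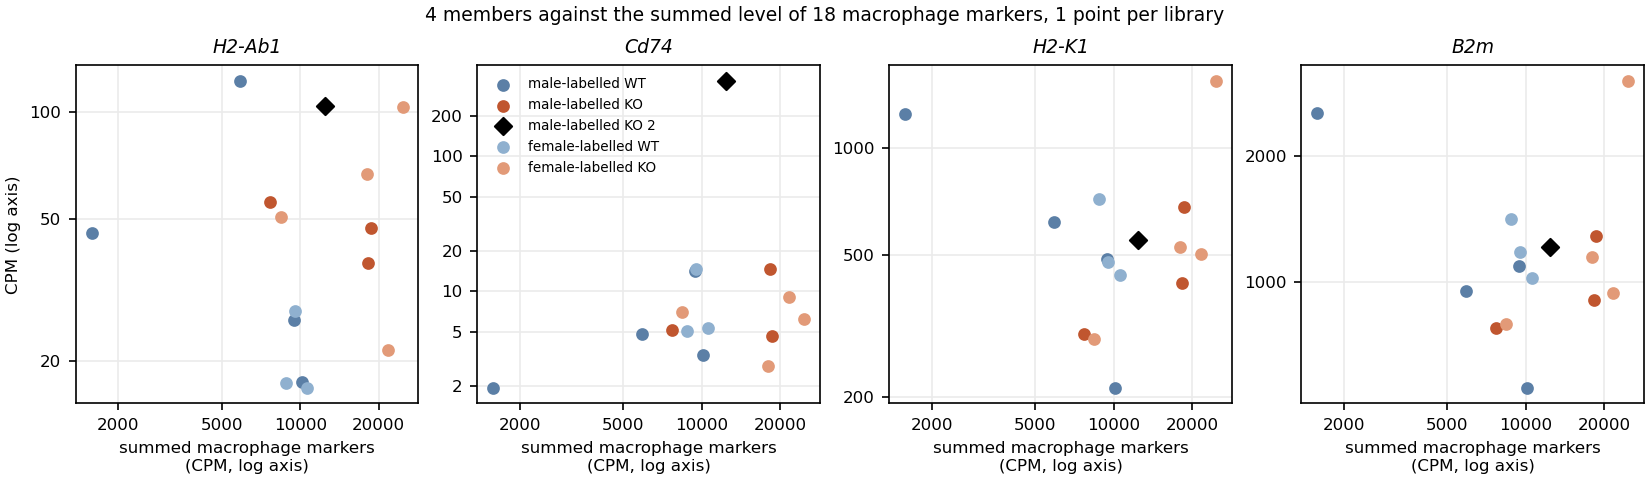
CPM of *H2-Ab1*, *Cd74*, *H2-K1* and *B2m* (vertical, log axes) against the summed CPM of 18 macrophage markers (horizontal, log axis), 1 point per library, coloured by group with male KO 2 as a black diamond. *Cd74* in male KO 2 lies at 363 CPM with a macrophage sum of 12450 CPM, while no other library exceeds 14.7 CPM, and the class I genes are high at both ends of the macrophage range.

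Most markers of other cells that carry class II were low. Of 10 dendritic cell markers, 7 stayed under 1 CPM in every library, among them *Xcr1* and *Clec9a* of cross-presenting dendritic cells, and *Itgax*, shared with macrophages, was the most abundant. *Zbtb46*, which encodes a transcription factor of dendritic and endothelial cells, was present in every library at 1.17 to 9.33 CPM (6.73 CPM in male KO 2), and *Clec10a*, a lectin gene shared with macrophages, at 0.448 to 3.43 CPM (1.45 CPM in male KO 2). Of 7 B cell markers, 6 stayed under 1 CPM, including *Cd79a* and *Ms4a1*, and the exception, *Blnk*, is also expressed in macrophages. Male KO 2 ranked 3 from the top of 15 in the dendritic sum (27.3 CPM) and 8 from the top in the B cell sum (26.8 CPM). Of 6 T cell markers 5 stayed under 1 CPM, and of 6 endothelial markers 3 did. None of the tested markers of these 4 lists passed between genotypes in edgeR, where 1 dendritic, 1 B cell, 0 T cell and 1 endothelial marker had an unadjusted p under 0.05, and DESeq2 called 1 endothelial marker.

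Male KO 2 also stood apart in genes outside antigen presentation. With at least 1 CPM and at least 10 times the next highest library, 44 genes stood out in male KO 2, against 26 in female KO 4 and 0 to 4 in each other library. The 44 held *Cd74*, *H2-Aa*, *H2-Eb1* and *Ciita*. They also held *Ccr2*, the chemokine receptor of inflammatory monocytes, at 20.3 CPM (0.553 CPM in the next library), and *Lamc3*, a laminin chain, at 30.6 CPM (1.53 CPM). The rest include genes of neurons, such as the synaptic vesicle fusion gene *Snap25* at 5.04 CPM (0.145 CPM in the next library), the calcium buffer gene *Calb1* at 2.68 CPM (0.0111 CPM) and the cerebellar GABA receptor gene *Gabra6* at 1.18 CPM (0.0102 CPM). These genes were named after their values were seen. In a list of 16 neural markers drawn up after that, which includes some of the 44, 12 were highest in male KO 2. Their part in the class II values of that library was not tested.

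The genes whose pattern over the 15 libraries was most like that of the class II genes were sought by the root mean square difference from the mean profile of *H2-Aa*, *H2-Ab1*, *H2-Eb1* and *Cd74*, on centred log2(CPM + 0.5) values. They included *Ccr2* (0.50), *Gvin3* (0.636), *Lamc3* (0.665) and *Cadm3* (0.721), with the spread of the profile itself at 1.28. *Ccr2*, *Gvin3* and *Lamc3* were among the genes that stood apart in male KO 2. In the class II profile *H2-Aa*, *H2-Eb1* and *Cd74* were 24.7 to 84.2 times the next library there. That library therefore largely sets which genes come nearest, and no shared pattern over the other libraries is shown. *H2-Ab1* was instead highest in male WT 4. The named genes were low, with a mean of 0.383 to 2.36 CPM beside the 0.5 CPM added. For the mean of *H2-K1*, *H2-D1* and *B2m* they were *Nampt* (0.300), *Itpk1* (0.333), *Ifitm1* (0.336), *Fgd6* (0.349) and *Fuom* (0.351), with a profile spread of 0.666, and none of them stood apart in male KO 2. None of the genes named here passed the edgeR threshold between genotypes.

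The genes around the members in both pathways were described by fixed lists. Among the other class II and processing genes, 11 of 13 were tested, 7 had positive and 4 negative log2 fold changes (median 0.34), and 2 passed. At an unadjusted p under 0.05 in edgeR there were 4, where 23.6% of all genes were. *Ctss*, the protease cathepsin S that trims the invariant chain, rose from 194 ± 91.8 CPM (SD, n = 7) in WT to 900.1 ± 722 CPM (SD, n = 8) in KO libraries (log2 fold change 2.07, edgeR adjusted p = 0.0467). *Lgmn*, an asparagine-specific lysosomal protease, rose from 220 ± 30.1 CPM to 459 ± 139 CPM (log2 fold change 1.00, edgeR adjusted p = 0.0112). With 1 library left out at a time *Lgmn* passed in 15 of 15 fits (adjusted p of 0.0060 to 0.0439 in edgeR), and *Ctss* passed only without male WT 3 or female KO 1, in 2 of 15 (adjusted p of 0.0201 to 0.115 over all 15). *Lgmn* did not pass without both male WT 1 and male KO 1 (edgeR adjusted p = 0.0531), without the 3 libraries that went against their sex label (edgeR adjusted p = 0.131), with the macrophage covariate (edgeR adjusted p = 0.205) or in 1 sex label alone (edgeR adjusted p of 0.631 for male and 0.240 for female). *Ctss* did not pass without male WT 1 and male KO 1 (edgeR adjusted p = 0.077) or without female WT 1 and female KO 1 (edgeR adjusted p = 0.097). Nor did it pass with the macrophage covariate (edgeR adjusted p = 0.513). DESeq2 also called *Ctsb* higher and *Rfxank*, a subunit of the RFX complex, lower (DESeq2 adjusted p = 0.038). *Ctss*, *Lgmn* and *Ctsb* are also abundant in macrophages. The summed macrophage markers had a higher median in KO libraries but overlapped between genotypes (7674 to 24800 CPM in KO, 1580 to 10610 CPM in WT). *Lgmn* did not overlap, at 330 to 682 CPM in KO and 174 to 257 CPM in WT libraries, where 1.13% of all genes did not. The part of macrophages in these values was not tested.

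Class I loading and immunoproteasome genes had 4 positive and 10 negative log2 fold changes among 14 (median -0.21), and none passed in edgeR, where 3 had an unadjusted p under 0.05. The 4 most abundant were the chaperone genes *Calr* (log2 fold change 0.36), *Pdia3* (0.12) and *Canx* (0.30) and the tapasin gene *Tapbp* (-0.42). DESeq2 called *Calr* higher and *Tapbpl*, a relative of tapasin, lower. Of 6 constitutive proteasome genes, used as a comparison, 5 were positive (median 0.088) and none passed in edgeR, where 1, *Psmb6* (0.53), had an unadjusted p under 0.05 and was called by DESeq2. The most abundant was *Psmd1* (0.062), followed by *Psmb6*, *Psma1* (0.11) and *Psmb7* (-0.0020). Of 17 non-classical class I genes 13 were tested, with 5 positive and 8 negative values (median -0.098) and none past the threshold in either tool, and 1 had an unadjusted p under 0.05. The 4 most abundant were *Fcgrt* (-0.59), which encodes the neonatal Fc receptor, *H2-Q4* (-0.69), *H2-T23* (-0.18) and *H2-T22* (-0.37). Several of these genes are close copies of one another, so that reads between them are uncertain.

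Most interferon genes had negative log2 fold changes, and none passed in edgeR. Of 8 genes of the interferon gamma receptor and its signalling, 7 had negative log2 fold changes (median -0.42), the exception being *Irf2* (0.11), and the 4 most abundant were *Jak1* (-0.17), *Ifngr1* (-0.59), *Jak2* (-0.25) and *Ifngr2* (-0.017). None passed in edgeR or DESeq2, and 4 had an unadjusted p under 0.05 in edgeR. Of 15 interferon targets 13 were negative (median -0.63), and none passed in edgeR, where 5 had an unadjusted p under 0.05, while DESeq2 called 4 lower. The other 2 targets were *Cxcl10* (1.01) and *Rsad2* (1.08). The 4 with the highest mean level were *Gbp2* (-0.95), *Irgm1* (-0.45), *Stat2* (-0.23) and *Iigp1* (-2.68). In male KO 2 none of the 15 targets and none of the 8 signalling genes was at its highest, and its summed target level of 321 CPM ranked 6 from the top of 15. Among KO libraries male KO 2 had the highest target sum, with a KO median of 199.7 CPM, while WT libraries reached up to 554.1 CPM. The part of interferon in its class II values was not tested. Of 7 costimulation genes 6 were tested, with 5 positive and 1 negative value (median 0.42) and none past the threshold in either tool, and 1 had an unadjusted p under 0.05. The 4 most abundant were *Icam1* (0.15), *Cd274* (1.35), *Cd86* (0.31) and *Cd80* (0.52), and *Cd274*, which encodes the inhibitory ligand PD-L1, had 296 CPM in female KO 4 and at most 34.8 CPM elsewhere.

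**Figure D4:**
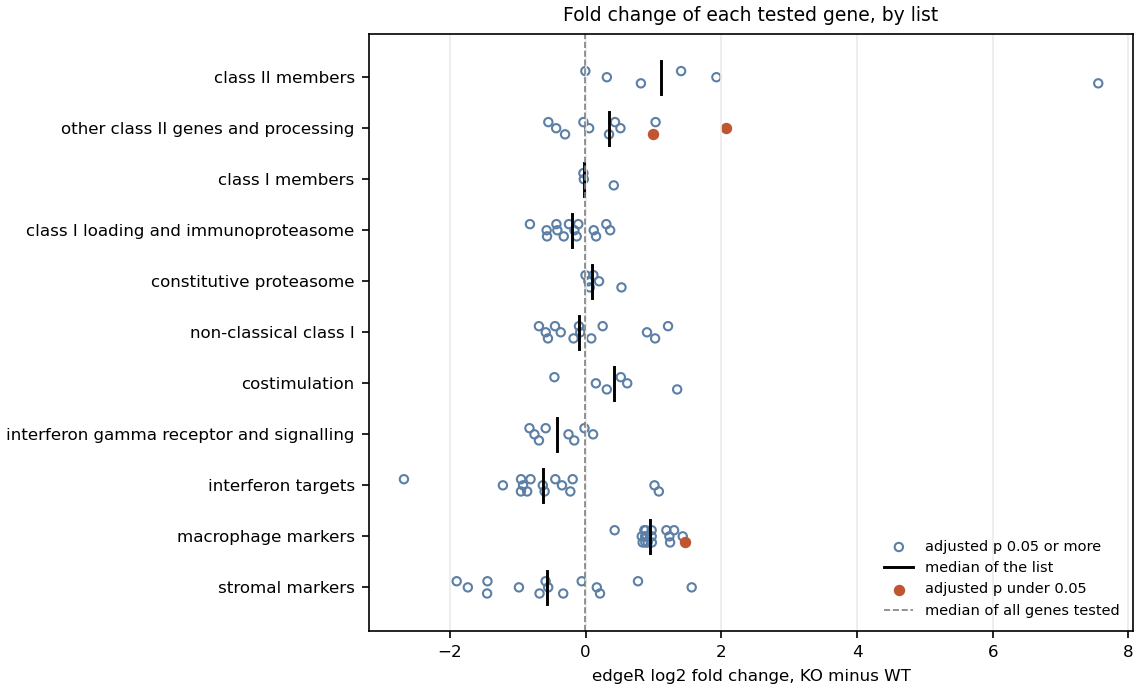
The edgeR log2 fold change of KO over WT libraries (horizontal axis) for each tested gene, grouped by list, with 1 circle per gene, filled where the adjusted p was under 0.05, a bar at the median of each list and a dashed line at the median of all genes tested (-0.015). *Ctss*, *Lgmn* and *Cd68* are the filled circles, and the class II values spread from -0.0041 to 7.56 with none filled.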

How the data were processed

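Bulk RNA-sequencing counts of 15 libraries of cultured mouse MSCs were used. The authors amplified full-length cDNA, trimmed reads with fastp 0.23.1, mapped them with STAR 2.7.9a to GRCm39 and the GENCODE M31 annotation, and deposited whole-number counts per gene from featureCounts (Subread 2.0.1, strand setting 2), without normalization. All 15 columns matched a sample.

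The 10 members and all gene lists were chosen with earlier results of these data known. The quasi-likelihood test of edgeR 4.0.16 (R 4.3.3) was applied to 17204 genes after filterByExpr and TMM scaling, on sex label plus genotype, with Benjamini-Hochberg adjustment (biological coefficient of variation 0.482). Contrasts within a sex label used 1 term per group. DESeq2 1.42.0 and limma 3.58.1 (voom with quality weights) were alternatives, beside other scalings and filters, no sex term, a macrophage covariate, each label alone, a replicate block and leaving libraries out. The log2 ratio of *H2-Ab1* to *B2m* used CPM + 0.5 and an exact permutation within sex labels, in Python 3.11.15. Named were all 10 members, *Slc6a6*, the nearest 5 genes to each profile, and from each list the genes past the threshold, or the 4 most abundant where none or more than 4 passed. A gene that met this rule is not reported here. Others were named after their values were seen. The fit was tested on simulated data. Gene positions are from GENCODE M39, and the CPM of 3 reads given as a floor covers counting error only.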

Additional observations from a re-analysis of the deposited data

Results flagged for a closer look

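In groups of 4 libraries, the gap between the most extreme library and its nearest neighbour, as a share of the group's range, was set against Dixon's limit at the 95% level. Of 33 such groups (10 members and the log2 ratio of *H2-Ab1* to *B2m* in 3 groups each) 5 passed. For independent, normally distributed values chance would give about 1 in 20, or 1.65. The members were taken as CPM without a log scale, and some lay near 0 reads. The 5 can therefore not be read as an excess over 1.65. In the male KO group, library 2 lay far above the other 3 for *H2-Aa* (0.989), *H2-Eb1* (0.973), *Cd74* (0.972) and *Ciita* (0.963). These are the class II genes whose reads came mostly from that library. In the female KO group, library 4 lay above the other 3 for *B2m* (0.842), with 3032 CPM against 791 to 1146 CPM. The groups share libraries across genes, so that the 4 passes of male KO 2 are not independent of each other. No difference between the sex labels passed its test.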

How the results depend on the processing

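No member had an adjusted p under 0.05 between genotypes under any of 28 alternatives. The same held in 24 for each sex label and 23 for the difference between them. Most fits for the sex labels called no gene at all, nor did the fit with the macrophage covariate. Their count of 0 thus says nothing of the members, and DESeq2 gave a p for only 6 of them. *H2-Ab1*, *H2-D1*, *H2-DMa* and, where it was tested, *H2-Aa* kept a positive log2 fold change. *H2-Eb1* turned negative with the replicate block (-0.11), in female-labelled libraries alone (-0.59), without male KO 2 (-0.55) and, an alternative chosen after the data were seen, without male KO 2 and female KO 4 (-0.58). With single libraries left out it ran from -0.55 to 1.74. *Cd74* turned negative in female-labelled libraries alone (-0.39), with 0.0063 to 2.44 over the libraries left out. Values near 0 changed sign more often. *H2-DMb1* became positive with DESeq2 (0.0089), its size factors in edgeR (0.0093), no filter (0.0073), the replicate block (0.0088), the macrophage covariate (0.26), female-labelled libraries alone (0.089) and without female WT 1 and female KO 1 (0.012), and ran from -0.12 to 0.11 with 1 library left out. *H2-K1* became positive with no sex term (0.0066), the macrophage covariate (0.44), female-labelled libraries alone (0.43) and without male WT 1 and male KO 1 (0.054), and ran from -0.36 to 0.27. *B2m* did so with no sex term (0.013), the macrophage covariate (0.41), female-labelled libraries alone (0.33), without male WT 1 and male KO 1 (0.039) and without female WT 1 and female KO 1 (0.014), and ran from -0.31 to 0.28. For these the cause was not tested. The log2 ratio of *H2-Ab1* to *B2m* ran from 0.686 to 1.25 with 1 library left out. With no filter on low counts *Ciita* could be fitted, with a log2 fold change of 5.53 (edgeR adjusted p = 0.068).

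Same-numbered WT and KO libraries within a sex label deviated together in the 4 male pairs (correlations of 0.171 to 0.636) and female pair 1 (0.31) but not in female pairs 2 and 3 (0.0979 and -0.0348), and were not treated as paired; with the replicate block 82 genes were called higher and 177 lower, against 94 and 129. Counts over all genes moved more with DESeq2 (968 and 1136), voom (611 and 708), no filter (32 and 42), no sex term (188 and 258), the macrophage covariate or 1 sex label alone (0 and 0), and 1 library left out (8 to 476 higher and 4 to 779 lower). They were 2 and 0 without male WT 1 and male KO 1, 7 and 0 without female WT 1 and female KO 1, 0 and 0 without the 3 libraries that went against their sex label, and 33 and 70 without male KO 2 and female KO 4. Depth limits *Ciita* and *H2-Aa*, which were at or under 3 reads in many libraries.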

Other observations

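The genotypes also overlapped for the stromal list. Of 14 stromal markers, 10 had negative log2 fold changes (median -0.57), none passed in edgeR, where 5 had an unadjusted p under 0.05, and DESeq2 called 2 lower. Their summed level was 28270 to 47700 CPM in WT and 6174 to 40550 CPM in KO libraries.

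In female KO 4, the library with the most class I, the 26 genes at 10 times or more the next library included the chemokine-binding receptor gene *Ccrl2* (83.8 CPM, next 4.99 CPM) and the acute-phase genes *Orm1* (18.6 CPM, next 0.648 CPM) and *Saa1* (2.81 CPM, next 0.276 CPM). They were named after their values were seen.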
